A study of Mus musculus with 2 samples.

Results

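Translation initiation factors are the proteins that bring the small ribosomal subunit, the initiator tRNA and the start codon of an mRNA together. eIF2 carries the initiator tRNA with GTP, eIF2B recharges eIF2, eIF3 holds the small subunit in place, and eIF4E, eIF4G and eIF4A bind and unwind the capped end of the mRNA. eIF5, eIF5B and eIF6 act when the subunits join. In red cell precursors this machinery serves a very high output of globin, and kinases that act on eIF2 tie that output to the supply of heme. The initiation factors were taken as all probe sets whose only gene symbol in the platform annotation was Eif followed by a digit, with the eIF2 kinase genes (Eif2ak) left out. This gave 120 probe sets of 43 genes, out of 45037 probe sets and 18193 genes on the array once array controls were set aside. The rule used names and no measured value.

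Signals came from short-oligonucleotide arrays hybridised with labelled total RNA of G1E cells, GATA-1-null red cell precursors of the mouse grown as a line. The estradiol array held RNA of cells given 1 µM estradiol for 24 h, and the untreated array held RNA of the same cells before estradiol was added. Both groups lacked endogenous GATA-1 and carried ER-GATA-1(V205G), a fusion that estradiol activates and whose GATA-1 part is a mutant defective in binding the cofactor FOG-1. The sources used here do not give the promoter of the fusion, and cells without the fusion or kept untreated for 24 h were not analysed here. The activated mutant, estradiol itself and time in culture therefore cannot be told apart. Each group was 1 array, so no value below has an error between cultures and none has a p-value.

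Signals are linear and per probe set, the group of short probes that reads a transcript. A signal floor was set at 95.2, the 50th percentile over both arrays, and a probe set at or above it on both arrays was called measured. Of all probe sets, 50.9% reached the floor with estradiol and 49.2% untreated. For a gene with several, the brightest one stands for it. Differences are log2 ratios of estradiol over untreated, where 0.58 is 1.5-fold, the threshold used here. They were read against the pooled SD of ratios among probe sets that read 1 gene, computed from every gene with several. That SD was 0.25, and 2 SD came to 0.60 for the dimmest, 0.50 for the middle and 0.40 for the brightest tertile of genes. These tertiles were cut on the mean signal of genes with several measured probe sets. A single gene took the limit of its tertile among all measured genes, by its brightest probe set, so limits near a ratio are approximate. Array controls that set 3' against 5' signal gave ratios for the transferrin receptor of 2.04 with estradiol and 2.28 untreated. Beta-actin gave 1.16 with estradiol and 1.14 untreated, and Gapdh 0.781 with estradiol and 0.798 untreated. Of the erythroid progenitor markers, 10 of 10 were measured, with a summed signal of 54570 with estradiol and 47272 untreated. At least 1.5-fold higher after estradiol were 4 of them, Alas2 (12.1-fold), Zfpm1 (2.29-fold), Lmo2 (1.62-fold) and Klf1 (1.54-fold), and ratios of the other 6 lay between -0.56 and 0.13. Of the lymphoid markers 0 of 5 were measured, of the neutrophil and macrophage markers 2 of 7, and of the megakaryocyte markers 2 of 5. Mast cell markers were measured in 4 of 7 genes. The summed signal of all 7 was 5773 with estradiol and 9189 untreated. After estradiol Cpa3 was 5.77-fold and Ms4a2 2.65-fold lower, Tpsab1 was 24.4-fold higher, and Cma1 had a log2 ratio of 0.19. Fcer1a reached the floor on the untreated array only, Hdc on the estradiol array only, and Mcpt4 on neither. The part of such cells in the results below was not tested.

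Initiation factor transcripts differed little between the arrays on their brightest probe sets. Of the 43 genes, 40 were measured (93.0%, against 56.3% of all genes), and 0 of the 40 were at least 1.5-fold higher or lower after estradiol. Past the same threshold lay 7.11% of all measured genes on the higher side and 4.85% on the lower side. The ratios of the 40 genes ran from -0.41 for Eif2d to 0.58 for Eif5a2, and 33 of them (82.5%) lay within 0.20 of 0, against 48.4% of all measured genes. Their SD was 0.16, against 0.42 for all genes. Dimmer probe sets of some genes lay further from 0. Over all 103 measured initiation factor probe sets the SD was 0.24, against 0.41 over all measured probe sets. The median of the 40 genes was -0.03, against 0.00 for all genes, with 25 genes below 0 and 15 above. That median became 0.00 after quantile normalization and 0.01 after loess, and fell to -0.14 with scaling to a common median, which moved the median of all genes to -0.11, so no direction is read from it. In RNA of a whole culture, fewer cells with a transcript and less of it per cell cannot be told apart.

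Ratios of bright genes varied less than those of dim genes on these arrays, and initiation factors were bright. The median signal of the 40 genes was 6196. Among all 471 genes at or above that signal, 1.49% were at least 1.5-fold higher and 0.212% lower. The interquartile range of ratios was 0.09 for the 20 initiation factors in that range and 0.16 for the 471 genes. Within 0.20 of 0 lay 85% of these 20 initiation factors and 81.7% of the 471 genes, which is close. Between the lowest signal of the initiation factors, 942, and their median, the interquartile range was 0.21 for the other 20 initiation factors and 0.37 for 4236 genes. Within 0.20 of 0 there lay 80% of the 20 initiation factors and 51.6% of the 4236 genes. Among those 4236 genes 5.85% passed 1.5-fold upward and 4.49% downward, against 0 of 20 initiation factors in both directions. Genes were not matched for signal within a range. With 20 initiation factors in each range, these shares are descriptions of 2 arrays.

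**Figure D1:**
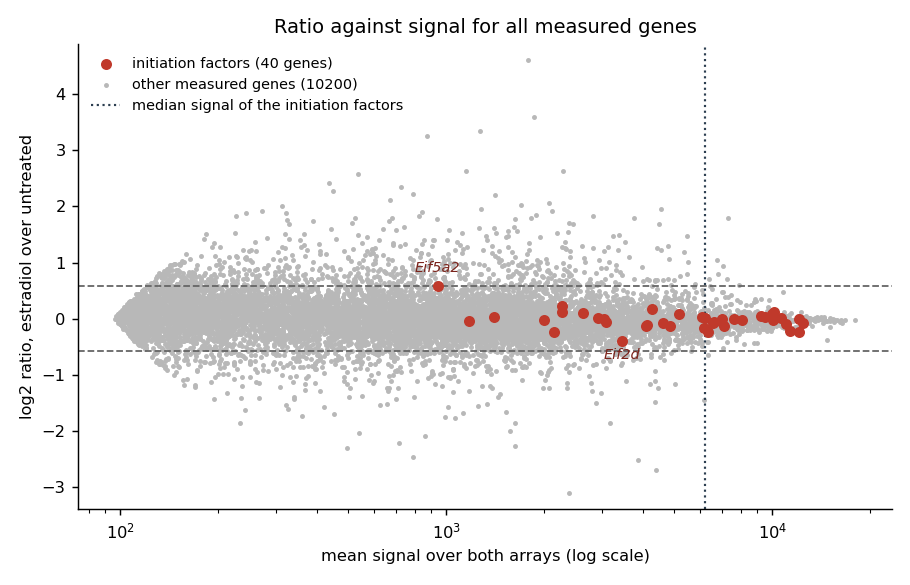
Log2 ratio of estradiol over untreated (y axis) against mean signal over both arrays (x axis, log scale) for every measured gene. The 40 initiation factors (red) lie between -0.41 and 0.58, inside the dashed 1.5-fold lines, and the grey cloud of other genes narrows at the signals right of the dotted line, the initiation factors' median of 6196.

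Few single probe sets of the initiation factors passed the threshold. Of the 120 probe sets, 103 were measured, 17 lay below the floor on both arrays and 0 reached it on 1 array only. At least 1.5-fold higher were 2 of the 103, 1 each for Eif3l and Eif2s2, and at least 1.5-fold lower was 1, for Eif2d. Over all 21054 measured probe sets 7.59% were higher and 4.60% lower by that measure. The Eif3l probe set was the only member probe set past 2-fold, where 2.03% of all measured probe sets were at least 2-fold higher. The pooled SD between probe sets of 1 initiation factor gene was 0.18, and 0.15 without Eif3l.

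**Figure D2:**
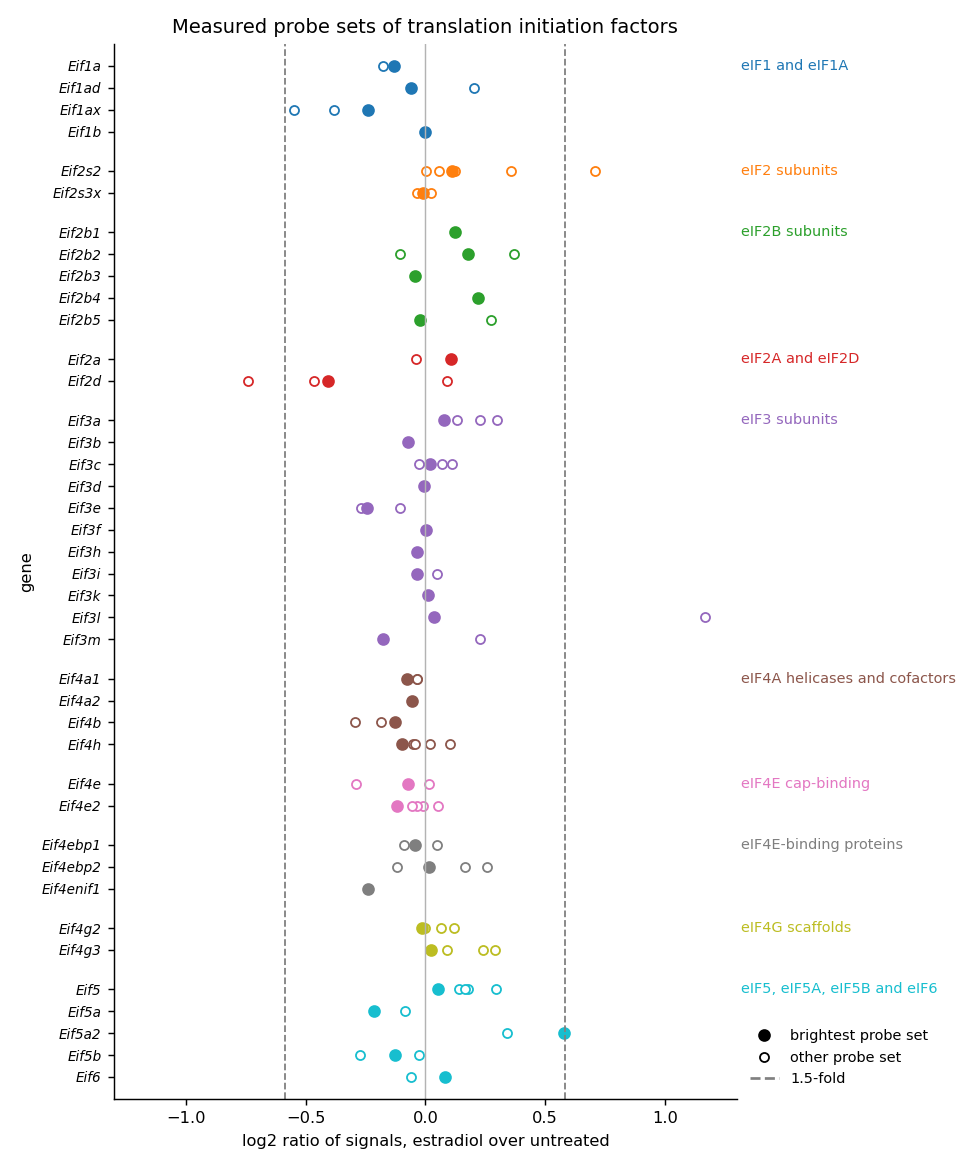
Log2 ratio of estradiol over untreated (x axis) for each measured probe set of the 40 measured initiation factor genes (rows), grouped and coloured by factor. Filled points are the brightest probe set of a gene and open points its others. All filled points lie inside the dashed 1.5-fold lines, with Eif5a2 next to the upper line, and 3 open points lie outside, for Eif2s2, Eif2d and Eif3l.

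The eIF5A paralogs had ratios of opposite sign, and Eif5a2 had the highest ratio of all members. eIF5A is the only protein known to carry hypusine, a modified lysine, and helps ribosomes at stalling sites and at termination. Eif5a2, its second gene, had a signal of 1128 with estradiol and 756 untreated, a ratio of 0.58 (1.49-fold). Its other probe set read 864 with estradiol and 683 untreated, a ratio of 0.34. Both probe sets were higher after estradiol, the brighter beyond the 2 SD of 0.50 for its signal tertile and just short of 1.5-fold. Eif5a read 10458 with estradiol and 12135 untreated (ratio -0.21), and 8805 and 9330 on its other probe set (-0.08). Both Eif5a probe sets were lower, within 2 SD, and both are of types whose probes can match other sequences. Of the hypusine enzymes, Dhps, which starts the modification, had a ratio of 0.10, and Dohh, which completes it, 0.17.

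Eif2d had the lowest ratio. It encodes eIF2D, a factor that can deliver tRNA to the ribosome without GTP and takes part in ribosome recycling, and is distinct from eIF2. The brightest probe set read 2972 with estradiol and 3943 untreated, a ratio of -0.41 (1.33-fold lower), just beyond the 2 SD of 0.40. Of its other measured probe sets, 1 read 2500 with estradiol and 3452 untreated (-0.47). A dimmer one, with probes that can match other sequences, read 428 and 714 (-0.74, or 1.67-fold lower), and the fourth 540 and 507 (0.09). Of the 4 measured probe sets 3 were lower and 1 was close to 0, and another 2 lay below the floor on both arrays. By the 2 SD measure 1 of 40 initiation factors was higher and 1 lower, against 8.76% and 7.26% of all measured genes. Against the same limits both calls were lost under some alternatives, for Eif2d with quantile normalization (-0.37) and loess (-0.36), and for Eif5a2 with a common median (0.46) and with the median over its probe sets (0.46).

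**Figure D3:**
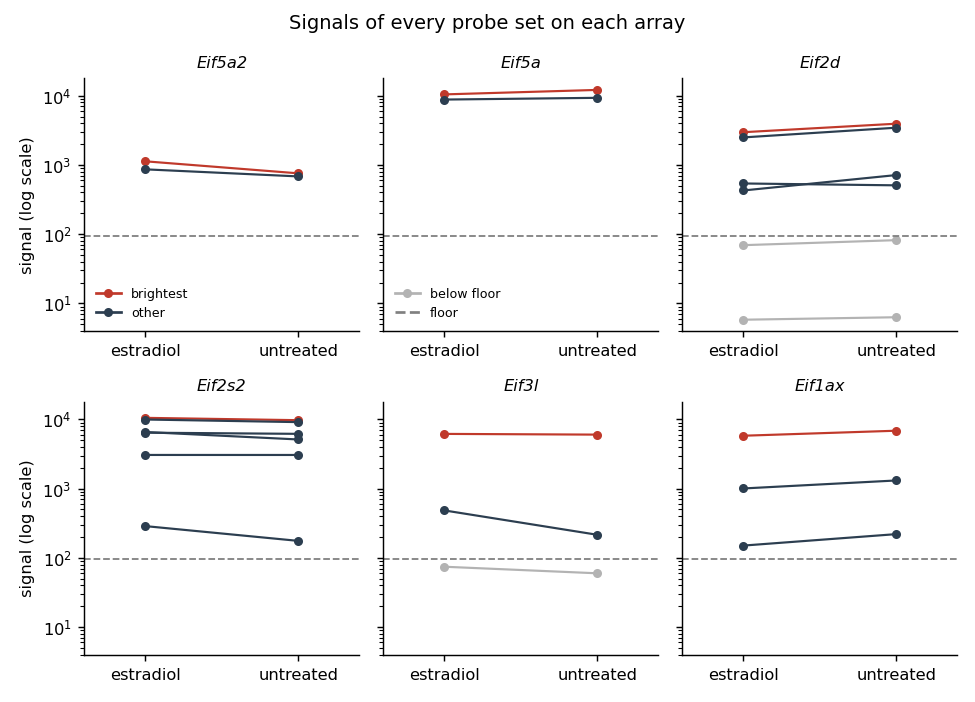
Signal (y axis, log scale) of every probe set of 6 initiation factor genes on the estradiol array (left) and the untreated array (right), with a line joining the values of 1 probe set. The brightest probe set is red, others are dark and those below the floor (dashed) grey. Both Eif5a2 lines slope down to the right, 3 of the 4 measured Eif2d lines slope up, and the steepest measured line is the dim probe set of Eif3l.

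The promoter windows of Eif5a2 and Eif2d are shown because these genes had the highest and lowest ratios. That of Eif4e, the cap-binding protein gene, holds the same motif as Eif5a2 and was chosen with its ratio known. The stretches are the 250 bases before the RefSeq start on build GRCm38.p6, read 5′ to 3′ on the gene's strand, which is the plus strand for all of them. They were searched on both strands for the E-box CACGTG, a palindrome bound by MYC and related factors, and for 4 GATA motifs, which were AGATAA, then also AGATAG with another last base, next TGATAA with another first base, and finally TGATAG with both changed. Capitals mark a match. The windows lie at chr3:28781027-28781276 (Eif5a2), chr1:131152957-131153206 (Eif2d) and chr3:138527018-138527267 (Eif4e, the downstream one of its 2 annotated starts).
Eif5a2: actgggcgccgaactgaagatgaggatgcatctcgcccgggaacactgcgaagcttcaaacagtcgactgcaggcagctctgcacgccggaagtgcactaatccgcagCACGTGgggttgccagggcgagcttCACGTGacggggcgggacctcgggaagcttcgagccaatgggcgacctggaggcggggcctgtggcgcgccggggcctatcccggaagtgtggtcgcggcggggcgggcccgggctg
Eif2d: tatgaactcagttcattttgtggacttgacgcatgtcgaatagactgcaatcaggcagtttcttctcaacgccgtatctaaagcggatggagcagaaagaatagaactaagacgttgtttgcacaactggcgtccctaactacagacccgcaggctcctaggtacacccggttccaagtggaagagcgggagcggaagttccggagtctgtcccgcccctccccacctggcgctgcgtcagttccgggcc
Eif4e: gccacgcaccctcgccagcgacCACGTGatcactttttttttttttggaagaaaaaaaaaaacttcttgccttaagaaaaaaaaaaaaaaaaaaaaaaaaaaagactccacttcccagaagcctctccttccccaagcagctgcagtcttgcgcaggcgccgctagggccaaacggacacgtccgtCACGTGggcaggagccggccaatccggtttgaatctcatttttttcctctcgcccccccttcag

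The Eif5a2 window holds 2 E-boxes, starting 142 and 117 bases before the start, and the Eif4e window holds 2, at 228 and 64 bases. The Eif2d window holds neither motif. Windows were found for 34 of the 43 genes, and 8 of these 34 (23.5%) held an E-box, against 6.86% of all 27025 genes with a window. They were Eif1b, Eif3f, Eif3k, Eif4a1, Eif4e, Eif4h, Eif5a and Eif5a2. Their ratios ran from -0.21 to 0.58 with a median of -0.04, and the 24 measured genes whose windows lacked the motif had a median of -0.01. A GATA motif was found in 4 of the 34 (11.8%), Eif3c, Eif3l, Eif4a1 and Eif4e, against 29.7% of all genes. That of Eif4e lies in the window of its upstream start, which is not printed, and the printed Eif4e window holds none. No GATA motif in these windows overlapped an E-box. A gene counted if any of its windows held the motif. The genes compared with the members were not matched to them for signal, base composition or number of windows, so these shares are descriptions. Matches of letters are not evidence of binding, and whether either motif bears on the ratios was not tested.

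The eIF1 and eIF1A genes, whose products guide scanning and start codon choice, had ratios from -0.24 to -0.00. Eif1ax, the X-linked eIF1A gene, read 5816 with estradiol and 6871 untreated (-0.24), with -0.38 and -0.55 on its dimmer probe sets. All 3 Eif1ax probe sets were lower, and the lowest ratio came from signals of 150 and 220, near the floor. Eif1a had 4644 with estradiol and 5081 untreated (-0.13), with -0.17 on its other probe set. Eif1b was the same on both arrays at 3051, and Eif1ad, which encodes a protein with an eIF1A-like domain, read 3018 with estradiol and 3150 untreated (-0.06). The other Eif1ad probe set went the opposite way, at 1514 with estradiol and 1316 untreated (0.20).

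Genes of eIF2 and its exchange factor eIF2B lay between -0.04 and 0.22. Eif2s2, the beta subunit of eIF2, read 10546 with estradiol and 9755 untreated (0.11). Its other probe sets gave 0.13, 0.06, 0.36 and 0.00, and 0.71 for a dim one at 287 with estradiol and 176 untreated. The probe set past 1.5-fold was thus the dimmest of 6. Eif2s3x, the X-linked gamma subunit, read 7629 with estradiol and 7675 untreated, with ratios from -0.03 to 0.02 over 3 probe sets. Both probe sets of Eif2s3y, the Y-linked gamma subunit, lay below the floor on both arrays, at 18.0 or less. Of the eIF2B subunits, Eif2b4 (delta) was highest at 2436 with estradiol and 2095 untreated (0.22). Eif2b2 (beta) read 4538 and 4015 (0.18) with -0.10 and 0.37 on the others, and Eif2b1 (alpha) 2364 and 2170 (0.12). Eif2b3 (gamma) and Eif2b5 (epsilon, the catalytic subunit) had ratios of -0.04 and -0.02, with 0.27 on a dim probe set of Eif2b5. All of these brightest probe sets were within 2 SD. Eif2a, which encodes eIF2A, a separate protein from eIF2 alpha, read 2725 with estradiol and 2533 untreated (0.11), with -0.04 on its other measured probe set.

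The eIF3 subunit genes, 11 of 11 measured, had a median ratio of -0.01 and stayed between -0.24 and 0.08. Eif3a, the largest subunit, read 10225 with estradiol and 9690 untreated, with ratios from 0.08 to 0.30 over 4 probe sets. Eif3e, a subunit that can be taken out of the complex without loss of its core, had the lowest ratio, at 11080 with estradiol and 13108 untreated (-0.24), with -0.11 and -0.27 on its others. All 3 probe sets of Eif3e were lower and all 4 of Eif3a higher, within 2 SD on each. Eif3m read 5785 with estradiol and 6539 untreated (-0.18), while its dim second probe set had 0.23, and the median of both was 0.03. Eif3b, a core subunit, read 4507 and 4739 (-0.07). Eif3c, Eif3d, Eif3f, Eif3h, Eif3i, Eif3k and Eif3l had ratios between -0.03 and 0.03 on their brightest probe sets, and the other measured ones of Eif3c and Eif3i lay between -0.03 and 0.11. Eif3d, known in other work as a cap-binding subunit, read 6975 with estradiol and 7011 untreated.

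The probe sets of Eif3l disagreed. The brightest read 6180 with estradiol and 6034 untreated (0.03), while a dimmer one read 484 and 215, a ratio of 1.17 (2.25-fold higher). The third lay below the floor, at 74.4 with estradiol and 59.8 untreated. The dim probe set is of the type whose probes can match other sequences, and no other gene had measured probe sets more than 1.00 apart on the log2 scale among the members. Whether the dim probe set reads another sequence was not tested. By the rule used for every gene the brightest probe set stands for Eif3l, so the dim one is not taken as its ratio. The brightest probe sets of Eif2a, Eif2b2, Eif2s3x, Eif3e, Eif3m, Eif4h, Eif4ebp1, Eif4g2 and Eif5a are also of such types. Without such probe sets, ratios were -0.04 for Eif2a, -0.10 for Eif2b2, -0.03 for Eif2s3x and -0.11 for Eif3e. They were 0.10 for Eif4h, -0.09 for Eif4ebp1 and 0.06 for Eif4g2, and Eif3m and Eif5a had no value.

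Measured genes of the cap-binding complex were close to even on their brightest probe sets. Eif4e, the cap-binding subunit, read 6432 with estradiol and 6763 untreated (-0.07), with 0.02 and -0.29 on its other measured probe sets. Eif4e2, a cap-binding paralog that represses translation, read 3956 with estradiol and 4291 untreated (-0.12), and its 5 probe sets stayed between -0.12 and 0.05. Both probe sets of Eif4e3 lay below the floor, the brighter at 50.9 with estradiol and 81.2 untreated. Eif4a1 and Eif4a2, the helicases that unwind the 5′ end, read 12126 with estradiol and 12777 untreated (-0.08) and 6480 and 6742 (-0.06). Among the helicase cofactors Eif4b had -0.13, with -0.18 and -0.29 on its others, and Eif4h -0.10, with -0.05 to 0.10 on its others. The only probe set of Eif4a3, a subunit of the exon junction complex, lay below the floor at 10.8 with estradiol and 5.10 untreated. The scaffold genes Eif4g2 and Eif4g3 had ratios of -0.01 and 0.02, at 11991 with estradiol and 12106 untreated for Eif4g2. Other measured probe sets, all dimmer, gave 0.06, 0.00 and 0.12 for Eif4g2 and 0.24, 0.29 and 0.09 for Eif4g3. The scaffold gene Eif4g1 had no probe set to itself and was not analysed here.

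The genes of proteins that hold eIF4E back also differed little. Eif4ebp1, an inhibitor released from eIF4E when mTOR phosphorylates it, read 6864 with estradiol and 7082 untreated (-0.05), with -0.09 and 0.05 on its other probe sets. Eif4ebp2 read 2941 with estradiol and 2907 untreated (0.02), and its 4 measured probe sets ran from -0.12 to 0.26. Eif4enif1, which carries eIF4E into the nucleus, read 1958 and 2310 (-0.24) on 1 probe set. Transcript levels say nothing of the phosphorylation that controls these proteins.

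Among the genes of subunit joining, Eif5, the GTPase-activating protein of eIF2, was slightly higher on every probe set. It read 9401 with estradiol and 9059 untreated (0.05), and the other 4 gave 0.14 to 0.30. Eif5b, the GTPase that joins the subunits, read 3905 with estradiol and 4266 untreated (-0.13), with -0.03 and -0.27 on its others. Eif6, which keeps the large subunit free, read 5318 with estradiol and 5031 untreated (0.08), with -0.06 on its other probe set. None of these passed 2 SD for its tertile.

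The lists of genes that act on the initiation factors were small, and single genes in them passed 1.5-fold. Of the 4 eIF2 kinase genes, Eif2ak1, which encodes the heme-regulated kinase HRI, read 1630 with estradiol and 934 untreated (0.80, 1.74-fold higher), and its 3 probe sets ran from 0.48 to 0.80. Eif2ak2 (PKR, activated by double-stranded RNA) was 1.51-fold lower at 271 with estradiol and 408 untreated, and Eif2ak4 (GCN2, activated by amino acid shortage) 1.57-fold lower at 182 and 286. Eif2ak3 (PERK, of the endoplasmic reticulum) had a ratio of 0.20. The probe sets of Eif2ak2 ran from -0.73 to -0.27, and its ratio of -0.59 was within the 2 SD of 0.60 for dim genes. Eif2ak4, dim as well with 1 measured probe set, had a ratio of -0.65, just beyond that limit. So 1 of 4 kinase genes was at least 1.5-fold higher and 2 were lower, against 7.11% and 4.85% of all measured genes. Eif2s1, the gene of the eIF2 alpha subunit that these kinases phosphorylate, was not analysed here. Among 5 eIF2 phosphatase genes, Ppp1r15a, the stress-inducible targeting subunit GADD34, read 1490 with estradiol and 640 untreated (2.33-fold higher). Ppp1r15b, the constitutive one, had 0.36, and the catalytic subunits lay between -0.09 and -0.04 on their brightest probe sets. Over all their measured probe sets the catalytic subunits ran from -0.24 to 0.38.

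Of 23 measured partners and regulators, 2 were at least 1.5-fold higher and 1 lower, and 87.0% lay within 1.5-fold, close to the 88.0% of all measured genes. Mknk1 and Mknk2 encode kinases that phosphorylate eIF4E and went opposite ways. Mknk1 read 1907 with estradiol and 619 untreated (3.08-fold higher, with ratios of 1.62 and 1.28 on its 2 probe sets). Mknk2 read 3007 with estradiol and 5727 untreated (1.90-fold lower, ratios -0.93 and -0.71). Pdcd4, an inhibitor of the eIF4A helicase, read 4367 with estradiol and 2440 untreated (0.84, 1.79-fold higher).

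Lists for later steps of translation are read against all measured genes, of which 88.0% lay within 1.5-fold and 48.4% within 0.20 of 0. Of 8 measured elongation genes, 1 passed 1.5-fold, Eef2k, the kinase that inhibits eEF2, at 1123 with estradiol and 1879 untreated (1.67-fold lower), and their median was -0.00. Of 5 termination and recycling genes 0 passed, with a median of 0.00. Of 8 mitochondrial translation factor genes 1 passed, Tufm, a mitochondrial elongation factor gene (1.53-fold lower). The mitochondrial list had a median of -0.16, with 7 of 8 genes below 0 under the scaling used here. Of 33 aminoacyl-tRNA synthetase genes 2 passed, both for mitochondrial enzymes, Lars2 (1.51-fold higher) and Fars2 (1.86-fold lower), with an SD of 0.33, a median of -0.00 and 48.5% of genes within 0.20 of 0. Of 45 measured cytosolic ribosomal protein genes 0 passed, with an SD of 0.08 and a median of -0.02. The initiation factors, with an SD of 0.16, lay between these lists, a comparison that was not tested. The lists were not matched for signal, and ratios of bright genes varied less on these arrays. Of the Argonaute genes, which once carried Eif2c symbols, Ago3 was 1.67-fold higher on its brightest probe set, with ratios down to -0.12 on others.

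**Figure D4:**
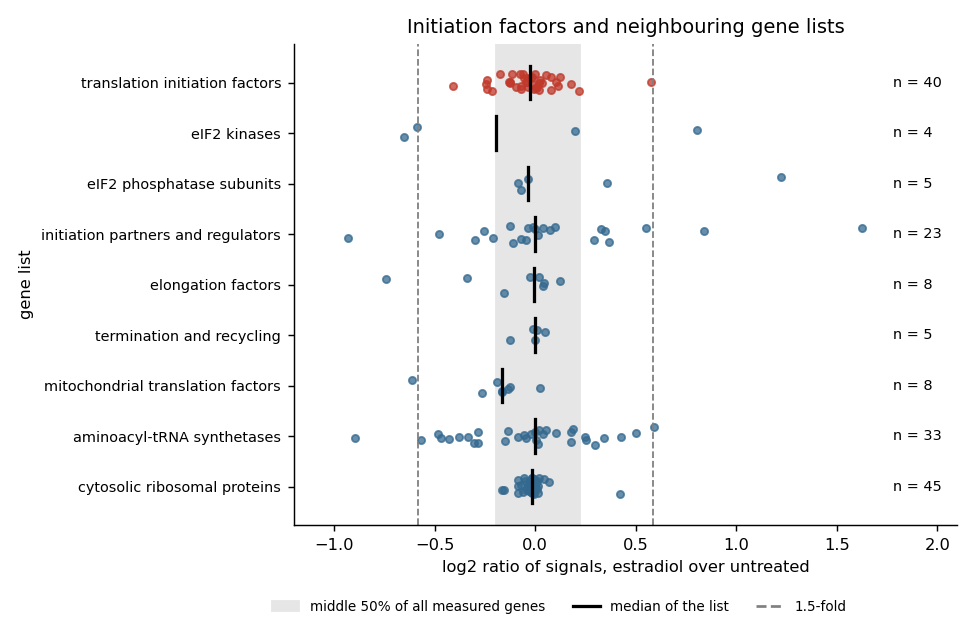
Log2 ratio of estradiol over untreated (x axis) for each measured gene (points) in 9 lists (rows), with black bars at the list medians, dashed lines at 1.5-fold and a grey band for the middle 50% of all measured genes. All 40 initiation factors (red, top) lie inside the dashed lines, while the kinase, phosphatase and regulator lists below them reach from -0.93 to 1.62.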

How the data were processed

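Signal intensities per probe set were deposited by the authors, 1 column per array, and per the submitters' processing notes came from GCOS, but the sources used here name neither its version nor its settings. Both columns had a 2% trimmed mean of 500.0. They were rescaled to equal trimmed means over probe sets that were not controls (factors 1.00006 for estradiol and 0.999941 for untreated). The platform annotation gave 34945 probe sets 1 symbol, 932 several and 9160 none, and of the first 34741 matched RefSeq (GRCm38.p6), which changed no symbol. Only probe sets with 1 symbol were used. Some RefSeq initiation factor genes, such as Eif1, Eif2s1, Eif3g and Eif4g1, had no probe set to themselves and were not analysed here.

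Members and lists were chosen with earlier results of these data known. Every member gene is described, with all measured probe sets where one passes 1.5-fold or they lie over 1.00 apart. Genes of the neighbouring lists are named if past 1.5-fold, or as eIF2 kinases, and Dhps, Dohh and Ppp1r15b were chosen after their values were seen. With 1 array per group no test was made, and the number of arrays limits the precision. The alternatives were other scalings (loess span 0.3), a lower floor (30th percentile), a higher one (70th) or none (16 added to each signal), other choices of probe set, and a 2-fold threshold. The steps were tested on simulated data. Python 3.11.15, numpy 2.4.6, pandas 2.3.3, scipy 1.17.1, statsmodels 0.14.6 and matplotlib 3.10.9 were used.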

Additional observations from a re-analysis of the deposited data

How the results depend on the processing

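Under each of 9 alternatives, no log2 ratio of an initiation factor gene moved by more than the 0.25 SD between probe sets, except 1 gene of 40 with the median over probe sets (Eif3l, 0.60) and 1 of 38 when probe sets ending in _x_at or _s_at were left out (Eif2b2, -0.10). The floors at the 30th and 70th percentile changed no ratio of these 40 genes, and signals as deposited hardly any. A common median shifted all ratios by the same amount. These alternatives therefore say little about the stability of single genes. Eif5a2 ran from 0.46 to 0.59 and Eif2d from -0.52 to -0.36. The count of genes at least 1.5-fold higher became 1 after loess (Eif5a2) and 1 with the median over probe sets (Eif3l), and the count lower became 1 with a floor at the 30th percentile (Eif4e3). Probe sets at least 1.5-fold lower numbered 2 with a common median, quantile normalization or loess (a probe set of Eif1ax was added) or a 30th percentile floor, 3 with no floor, and 0 without _x_at and _s_at probe sets or at 2-fold. Those higher numbered 3 after loess (a probe set of Eif5a2 was added), 0 with a floor at the 70th percentile, 4 with no floor, 1 without _x_at and _s_at probe sets and 1 at 2-fold. The SD of the measured genes' ratios, whose alternatives were added after the values were seen, was 0.15 to 0.19. No paired analysis was possible because each group held 1 array. Dim probe sets limit what can be said of Eif4e3, Eif4a3 and Eif2s3y.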

Other observations

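Probe sets named for several genes were outside the rule but touch the family. The probe set named for Gm4027, BB287469 and Eif1a read 467 with estradiol and 1019 untreated, a log2 ratio of -1.13 (2.18-fold lower), whereas the Eif1a probe sets of its own had -0.13 and -0.17. Which of the named genes it reads is not known here. The probe sets named for Eif3j1 and Eif3j2, an eIF3 subunit with near-identical copies, had ratios of 0.16, 0.12 and 0.04. The one named for Gm5576 and Eif4a3 read 4411 with estradiol and 4870 untreated (-0.14), in contrast to the probe set of Eif4a3 alone, which lay below the floor. The one named for Ankhd1 and Eif4ebp3 read 882 with estradiol and 1133 untreated (-0.36).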
